A study of Mus musculus with 9 samples.

Results

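The BCL2 family genes described here are 10 of the 17132 genes in a table of messenger RNA from mouse pancreas, chosen by gene symbol: Bax, Bak1, Bcl2, Bcl2l1, Mcl1, Bcl2l11, Bid, Bad, Bbc3 and Pmaip1. All 10 were listed, and all 10 passed the filter on low counts. The study asked how Qingyi Decoction, a herbal preparation, acts in acute pancreatitis of wild-type C57BL/6 mice. Each of the 3 groups had 3 mice, with 1 library per mouse. QYD mice were injected intraperitoneally every hour, 7 times in all, with caerulein, a secretagogue that overstimulates acinar cells; LPS went with the last dose, and the mice took the decoction at 0 and 8 h. Model mice received the same caerulein and LPS, with saline in place of the decoction, and Control mice received saline for both. The caerulein dose is stated as 50 mg/kg, and the pancreas was taken 24 h after the first injection. The treatment label of the decoction mice reads QTD, while their titles read QYD. Age and sex are not used here, and the tissue is whole pancreas, so that fewer cells of a type and less RNA per cell cannot be told apart.

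Proteins of the BCL2 family decide whether the outer membrane of the mitochondrion is opened in apoptosis. The effectors BAX and BAK form the pores, the guardians BCL2, BCL-XL and MCL1 hold them back, and the BH3-only proteins BIM, BID, BAD, PUMA and NOXA carry death signals by binding guardians or effectors. In the exocrine pancreas the balance between these proteins bears on whether injured acinar cells die by apoptosis or by necrosis.

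The 10 genes lie on 8 chromosomes in build GRCm38 (chromosomes 1, 2, 3, 6, 7, 17, 18 and 19). The promoter windows of 3 members are shown as examples: Bax, an effector that rose, Bbc3, a BH3-only gene that rose, and Bcl2, a guardian that did not pass the test. They do not stand for the motifs of other members that rose or did not pass. Each is the stretch of 250 bases upstream of a RefSeq transcript start (GRCm38.p6), written 5′ to 3′ on the gene's own strand, at chr7:45466899-45467148 (minus strand) for Bax, chr7:16309333-16309582 (plus strand) for Bbc3 and chr1:106714291-106714540 (minus strand) for Bcl2. Capitals mark matches, on either strand, to the motifs that were searched.
Bax: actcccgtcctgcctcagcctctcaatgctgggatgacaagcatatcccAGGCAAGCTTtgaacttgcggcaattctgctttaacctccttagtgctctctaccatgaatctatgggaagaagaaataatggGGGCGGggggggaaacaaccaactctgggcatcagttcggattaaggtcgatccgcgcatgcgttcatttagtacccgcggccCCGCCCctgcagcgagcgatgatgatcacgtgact
Bbc3: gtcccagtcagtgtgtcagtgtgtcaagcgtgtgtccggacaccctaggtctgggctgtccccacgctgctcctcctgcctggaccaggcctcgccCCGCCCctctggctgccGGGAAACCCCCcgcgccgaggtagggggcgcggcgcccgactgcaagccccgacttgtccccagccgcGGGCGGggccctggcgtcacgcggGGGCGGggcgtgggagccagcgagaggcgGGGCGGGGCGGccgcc
Bcl2: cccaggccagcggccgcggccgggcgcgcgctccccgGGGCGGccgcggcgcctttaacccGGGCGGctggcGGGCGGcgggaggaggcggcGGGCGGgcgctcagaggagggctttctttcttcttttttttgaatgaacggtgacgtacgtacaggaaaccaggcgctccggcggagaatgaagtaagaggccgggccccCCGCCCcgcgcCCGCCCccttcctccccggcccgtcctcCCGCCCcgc
The motifs searched were the p53 decamer and the NF-kB site, both by their usual consensus, TGANTCA for AP-1, GGGCGG for the GC box, TATAAA and TTCNNNGAA for STAT factors. The Bax window holds 1 p53 decamer match, AGGCAAGCTT, which starts at position -201 counted from the base before the transcript start as -1, and 2 GC boxes. The Bbc3 window holds 2 NF-kB matches that overlap each other in the capitals GGGAAACCCCC, and 5 GC boxes, a pair of which overlap. The Bcl2 window holds 7 GC boxes and no match to the other motifs searched. Bbc3 has further windows, not shown, that hold GC boxes and no p53 or NF-kB match. Bak1, Bcl2l11 and Bid, which rose, and Mcl1 and Bad, which did not pass, hold no p53 or NF-kB match in any window. Bcl2l1, which rose, holds 1 NF-kB match in 1 of its 3 windows and no p53 match. For comparison, 27025 mouse promoter windows of the same length were taken from the RefSeq table, 1 per gene. Of these, 7.2% hold a p53 decamer match, 3.8% an NF-kB match and 32.9% a GC box. Members with several windows were searched in all of them, so these shares are not on the same basis. The Bbc3 window shown lies inside the annotated gene, between exons of its longer models. A match is a description of letters, not a site of binding.

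Libraries held between 19112923 and 20212744 estimated counts. The groups differed in composition: the summed level of 10 acinar genes, on library totals, was 315000 to 345000 CPM (counts scaled to a common library total) in QYD libraries, 319000 to 360000 CPM in Model libraries and 542000 to 563000 CPM in Control libraries. TMM scaling, which sets the bulk of genes level between libraries, lowered the median log2 fold change in both comparisons with Control. It went from 2.19 on library totals to 0.04 for Model versus Control, and from 2.09 to 0.06 for QYD versus Control. For QYD versus Model it went from -0.112 on library totals to 0.006. Levels in CPM are on the TMM scale unless library totals are named, and levels between genes are given in FPKM, the authors' values per length and library size. An adjusted p is that of edgeR's quasi-likelihood test after Benjamini-Hochberg adjustment over all tested genes. Control 45 stood apart from the other Control libraries in neutrophil markers, which summed to 42.1 CPM there, against 16.2 and 9.8 CPM in Control 43 and Control 44. Over 10390 to 10581 genes per pair, however, Control 44 differed most from the other Controls. Chi-square per degree of freedom was 43.6 against Control 43 and 48.8 against Control 45, and 16.3 between Control 43 and Control 45.

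Of the members, 7 rose in both injured groups and none fell. In Model versus Control, 7 of 10 members were higher at an adjusted p under 0.05, where 21.3% of all 12828 tested genes were higher, and the members' median log2 fold change was 1.40 against 0.04 for all tested genes. In QYD versus Control, 7 of 10 were higher, where 20.5% of all tested genes were higher, with a median of 1.00 against 0.06. The 7 were Bax, Bak1, Bcl2l1, Bcl2l11, Bid, Bbc3 and Pmaip1 in each comparison, and both comparisons share the 3 Control libraries. Without Control 45, 7 of 10 rose in each as well. The libraries of these 7 genes lay wholly above the Controls, as did 27.8% of tested genes for QYD and 27.4% for Model. Bid and Pmaip1 reached the filter of 0.515 CPM on library totals in none of the Control libraries, so these 2 genes entered the test only through the injured groups and had to differ. On library totals all 10 members were higher in both comparisons, as were 93.8% of tested genes for QYD and 94.0% for Model.

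Both effectors rose, to about 4 times the Control level in Model mice. Bax, whose protein moves from the cytosol into the mitochondrial membrane and forms pores there, had 34.9, 38.7 and 39.9 CPM in QYD libraries 65, 66 and 68, 44.99, 38.7 and 43.98 CPM in Model libraries 56, 57 and 59, and 5.87, 9.42 and 15.3 CPM in Control libraries 43, 44 and 45. Every injured library was above every Control library, and Control 45 was the highest Control. The log2 fold change of Bax was 1.89 ± 0.25 (SE) in QYD versus Control and 2.06 ± 0.25 in Model versus Control (edgeR, adjusted p = 0.000222 and 0.000116). Without Control 45 these were 2.30 and 2.47. The part of the neutrophil signal of Control 45 in its Bax level was not tested.

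Bak1, the effector that resides in the mitochondrial membrane, had 12.3, 11.7 and 12.5 CPM in QYD libraries, 15.9, 15.2 and 12.4 CPM in Model libraries and 3.63, 2.80 and 4.32 CPM in Control libraries. The injured libraries again lay wholly above the Controls, and Model 59 sat among the QYD values. Its log2 fold change was 1.76 ± 0.18 in QYD versus Control and 2.01 ± 0.17 in Model versus Control (edgeR, adjusted p = 4.44e-05 and 1.48e-05). The ratio of Bax to Bak1 FPKM within a library averaged 7.80 ± 0.57 in QYD, 7.39 ± 1.27 in Model and 7.07 ± 2.67 in Control libraries (SD, n = 3 each), so the groups overlapped in it. Of the exon bases of Bak1, 18.2% are shared with Ggnbp1 on the opposite strand, and 12.2% of those of Bax with Gm45808 on the same strand. The sources do not say whether counting used strand, so reads within the bases shared by Bak1 and Ggnbp1 cannot be told apart. Strand would not separate Bax from Gm45808. Of the sequence windows of 50 bases, 91.5% for Bax and 82.9% for Bak1 occur in no other gene's transcripts.

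**Figure D1:**
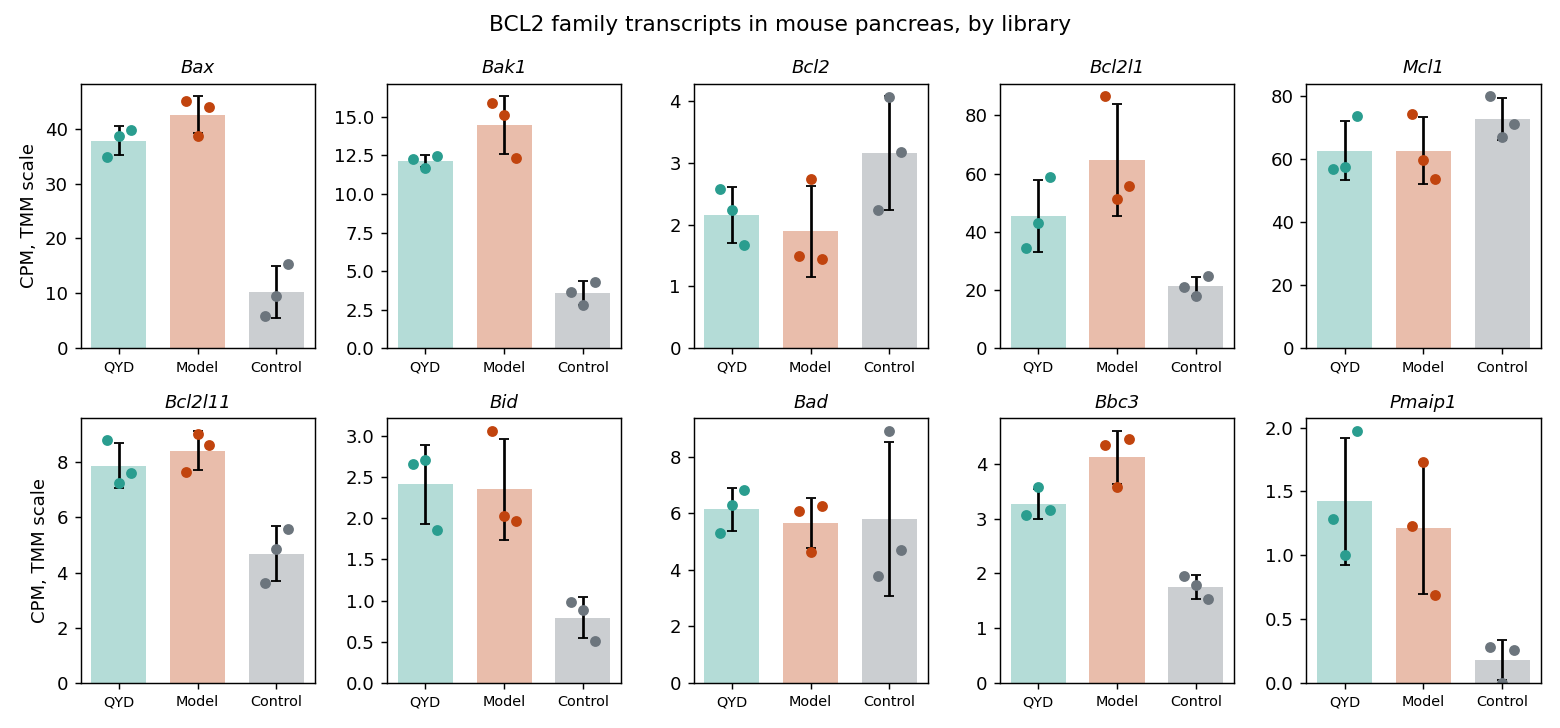
Level of each BCL2 family member in CPM on the TMM scale (vertical axes, linear, each from 0), with 1 point per library, bars at the group mean and error bars of 1 SD (n = 3). The QYD and Model points lie above all Control points for Bax, Bak1, Bcl2l1, Bcl2l11, Bid, Bbc3 and Pmaip1, and the groups overlap for Bcl2, Mcl1 and Bad.

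The 3 guardians did not move together. Bcl2l1 encodes BCL-XL, which binds effectors and BH3-only proteins at the mitochondrion. It had 34.5, 43.1 and 58.9 CPM in QYD libraries, 86.6, 51.4 and 55.7 CPM in Model libraries, and 21.0, 18.1 and 24.7 CPM in Control libraries. Model 56 was the highest of all libraries, and the injured libraries did not overlap with the Controls. The log2 fold change was 1.10 ± 0.24 in QYD versus Control and 1.60 ± 0.25 in Model versus Control (edgeR, adjusted p = 0.00467 and 0.000476).

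Mcl1, a guardian whose protein turns over quickly, had 56.9, 57.5 and 73.6 CPM in QYD libraries, 74.4, 59.6 and 53.8 CPM in Model libraries, and 80.0, 67.0 and 71.1 CPM in Control libraries. These ranges overlapped. Its log2 fold change on the TMM scale was -0.21 ± 0.16 in both comparisons with Control (edgeR, adjusted p = 0.299 for QYD and 0.294 for Model), while on library totals it was 1.81 and 1.95, below the median gene in each case (2.09 and 2.19). The 95% interval of the Model versus Control difference ran from -0.56 to 0.13 on the TMM scale.

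Bcl2, the founding guardian of the family, was low throughout, at 2.57, 2.25 and 1.68 CPM in QYD libraries, 1.49, 2.74 and 1.45 CPM in Model libraries, and 2.24, 4.08 and 3.18 CPM in Control libraries. Model 57 overlapped the lowest Control, and the other two Model libraries lay below every Control. Its log2 fold change was -0.55 ± 0.33 in QYD versus Control and -0.74 ± 0.33 in Model versus Control (edgeR, adjusted p = 0.204 and 0.0916), and on library totals its sign turned, to 1.496 and 1.41. Without Model 57 the Model versus Control value was -1.11 (adjusted p = 0.0173), which passes the threshold. The summed level of 5 B cell markers was 12.6, 20.8 and 0.89 CPM in QYD 65, 66 and 68, 0.63, 11.8 and 0.52 CPM in Model 56, 57 and 59, and 13.1, 2.67 and 4.58 CPM in Control 43, 44 and 45. Within the QYD and Model groups the library with the lowest Bcl2 also had the lowest B cell sum, while in Controls the highest B cell sum stood beside the lowest Bcl2. The part of B cells in the Bcl2 level was not tested.

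Among the BH3-only genes, 4 of 5 rose in each comparison with Control. Of all tested genes, 20.5% rose for QYD and 21.3% for Model. Bid and Pmaip1, which are among the 4, entered the test only through the injured groups and had to differ. Bcl2l11 encodes BIM, which can bind all guardians. Its level was 8.80, 7.24 and 7.60 CPM in QYD libraries, 7.64, 9.02 and 8.62 CPM in Model libraries, and 3.63, 4.84 and 5.59 CPM in Control libraries. The injured libraries stood above the Controls with a narrow gap. The log2 fold change was 0.74 ± 0.18 in QYD versus Control and 0.84 ± 0.17 in Model versus Control (edgeR, adjusted p = 0.00627 and 0.00289), the smallest rise of the 7.

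Bbc3 encodes PUMA, best known as a target of p53. It had 3.07, 3.59 and 3.17 CPM in QYD libraries, 4.35, 3.57 and 4.45 CPM in Model libraries, and 1.96, 1.78 and 1.53 CPM in Control libraries. Replicates lay close together in every group, and no injured library overlapped a Control. For Bbc3 the Control values rest on 14, 14 and 12 counts. The log2 fold change was 0.90 ± 0.21 in QYD versus Control and 1.23 ± 0.21 in Model versus Control (edgeR, adjusted p = 0.00588 and 0.000801). Trp53, the gene of p53, rose by 1.61 on the log2 scale in Model versus Control (edgeR, adjusted p = 0.000384). The part of p53 in the Bbc3 level was not tested.

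Bid links death receptors to mitochondria once a caspase has cut its protein. It had 2.66, 2.71 and 1.86 CPM in QYD libraries, 3.06, 2.02 and 1.97 CPM in Model libraries, and 0.98, 0.89 and 0.51 CPM in Control libraries. The Control values rest on 7, 7 and 4 counts. The ratio of pooled counts at TMM scale was 3.10 in QYD over Control (95% exact interval 1.92 to 5.33) and 3.02 in Model over Control (1.87 to 5.19), intervals that cover counting error only. Bid shares 17.7% of its exon bases with Bcl2l13 on the opposite strand.

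Pmaip1 encodes NOXA, which binds MCL1 above other guardians. It had 1.29, 1.00 and 1.97 CPM in QYD libraries, 1.23, 1.73 and 0.69 CPM in Model libraries, and 0.28, 0 and 0.25 CPM in Control libraries. The Control libraries held 2, 0 and 2 counts, where a count of 0 in Control 44 allows up to 0.382 CPM (3 counts), while the QYD libraries together held 127 counts and the Model libraries 121. The pooled ratio at TMM scale was 7.99 in QYD over Control (95% exact interval 3.05 to 29.8) and 7.10 in Model over Control (2.70 to 26.5). Both intervals cover counting error only and leave out the spread between mice. All 3 Control libraries together held 4 counts.

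Bad, whose protein is held inactive by survival kinases that phosphorylate it, was the BH3-only gene that did not pass. It had 5.32, 6.30 and 6.82 CPM in QYD libraries, 6.10, 4.64 and 6.24 CPM in Model libraries, and 3.77, 8.91 and 4.70 CPM in Control libraries. Control 44 was the highest of all libraries and Control 43 the lowest, with both injured groups between them. The log2 fold change was 0.07 ± 0.27 in QYD versus Control and -0.04 ± 0.27 in Model versus Control on the TMM scale, and 2.09 and 2.10 on library totals (edgeR, adjusted p = 0.848 and 0.915 on the TMM scale). Without Control 44 it was 0.53 and 0.42, neither past the threshold. Bad shares 20.5% of its exon bases with Gpr137 on the opposite strand. The effective length implied by counts and FPKM of Bad was 939 to 955 bases in QYD, 929 to 998 in Model and 1114 to 1269 in Control libraries, so its FPKM and its counts are not in one ratio.

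**Figure D2:**
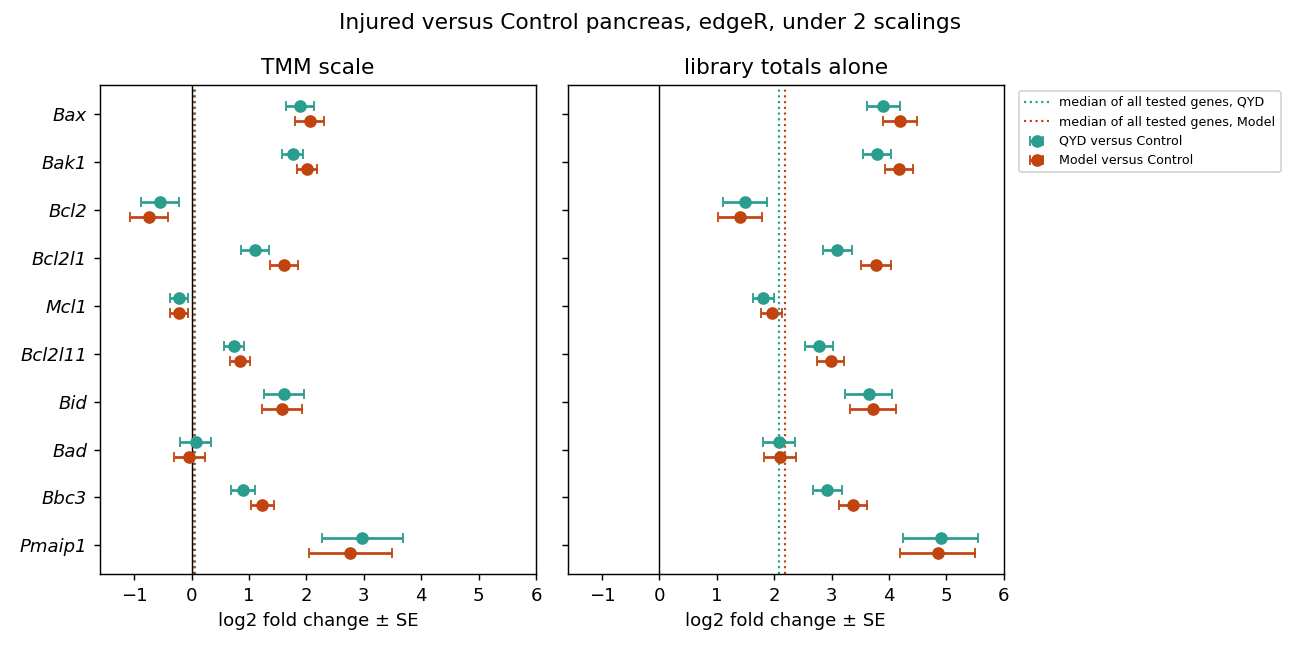
Log2 fold change of each member in QYD versus Control and in Model versus Control, with bars of 1 standard error from edgeR, on the TMM scale (left) and on library totals (right). Dotted lines mark the median of all tested genes, 0.06 for QYD and 0.04 for Model on the left and 2.09 and 2.19 on the right. Bcl2 lies left of the dotted lines in both panels, and the effectors and Pmaip1 lie farthest right.

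The decoction was set against untreated pancreatitis in QYD versus Model. No member passed, 0 of 10, and 0% of the 12828 tested genes passed in this comparison by edgeR. At an unadjusted p under 0.05, 750 tested genes (5.85%) lay past the threshold and none of them was a member. DESeq2 called 0 of all genes too, at the same threshold. The members' median log2 fold change was -0.05 against 0.01 for all tested genes.

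The value nearest to the threshold was that of Bcl2l1, with a log2 fold change of -0.51 and a 95% interval of -1.014 to 0.0022 (edgeR, unadjusted p = 0.0508, adjusted p = 0.826). Of the 3 QYD libraries, 2 lay below every Model library, and QYD 68, at 58.9 CPM, lay above 2 Model libraries. The Bcl2l1 value was -0.24 without Model 56 and -0.74 without QYD 68, with no adjusted p under 0.05 in any of the 9 single-library omissions. Bbc3 had -0.33 (interval -0.69 to 0.02) and Bak1 had -0.25 (interval -0.56 to 0.05). For Bax the value was -0.17 (interval -0.65 to 0.31), for Mcl1 0.0011 (interval -0.34 to 0.34) and for Pmaip1 0.21 (interval -0.68 to 1.10). These intervals contain no change for every member, and they do not show that the groups are alike: a 2-fold decrease of Bcl2l1 lies at the edge of its interval.

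On the TMM scale the QYD and Model libraries overlapped for all 10 members, while 8.56% of tested genes were higher and 8.18% lower in QYD without overlap. On library totals, the QYD libraries of Bax, Bcl2l1 and Bbc3 lay wholly below the Model libraries, as did 8.37% of all tested genes. For Bcl2l1 these levels were 61.7, 66.2 and 80.1 CPM in QYD libraries and 157, 90.0 and 84.6 CPM in Model libraries. For Bbc3 they were 5.49, 5.51 and 4.31 CPM in QYD libraries and 7.89, 6.26 and 6.75 CPM in Model libraries. None passed the adjusted threshold on that scale either.

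**Figure D3:**
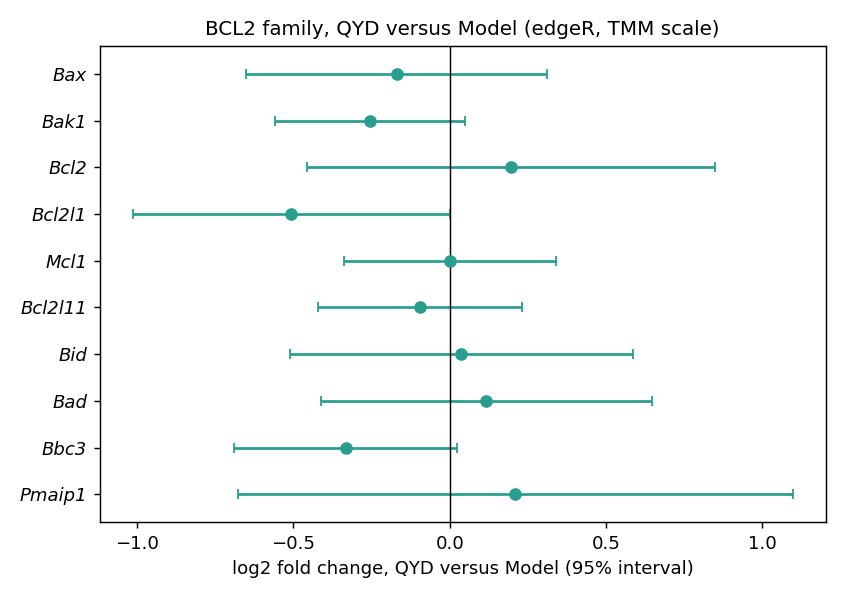
Log2 fold change of each member in QYD versus Model on the TMM scale (horizontal axis) with its 95% interval from edgeR. Bcl2l1 lies farthest to the left at -0.51, and every interval reaches 0.

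Per length, the order of members changed with injury. In QYD libraries the order by mean FPKM was Bax at 78.8 ± 5.58, Bcl2l1 at 29.2 ± 4.20, Mcl1 at 28.8 ± 2.16, Bak1 at 10.2 ± 1.37 and Bad at 10.0 ± 0.18, followed by Bcl2l11, Bbc3, Bid, Pmaip1 and Bcl2. In Model libraries it was Bax at 95.5 ± 11.4, Bcl2l1 at 46.7 ± 17.2, Mcl1 at 31.9 ± 8.00, Bak1 at 13.2 ± 2.83 and Bad at 9.97 ± 1.75, followed by Bbc3, Bcl2l11, Bid, Pmaip1 and Bcl2. In Control libraries Mcl1 led at 8.22 ± 0.42, before Bax at 5.22 ± 2.61, Bcl2l1 at 3.46 ± 0.56 and Bad at 1.93 ± 1.03, followed by Bak1, Bcl2l11, Bbc3, Bcl2, Bid and Pmaip1 (SD, n = 3 each). Bcl2l1 overlapped Mcl1, Bak1 overlapped Bad, Bcl2l11 overlapped Bbc3 and Pmaip1 overlapped Bcl2 in both injured groups, as did Bbc3 and Bid in QYD. In Controls, Bax, from 2.79 to 7.98 FPKM, overlapped Mcl1 and Bcl2l1, and so did Bcl2l1 with Bad, Bcl2l11 with Bbc3, and Bcl2 with Bid. The other neighbours in the 3 orders did not overlap. The 10 genes summed to between 163 and 173 FPKM in QYD, 177 and 255 FPKM in Model, and 17.5 and 24.1 FPKM in Control libraries, values on a library-total scale that rise with most other genes.

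A share of that sum does not depend on how libraries are scaled. Bax made up 47.3% ± 2.43 of the family's FPKM in QYD, 46.4% ± 3.69 in Model and 24.2% ± 8.60 in Control libraries. Mcl1 made up 17.3% ± 1.05 in QYD, 15.2% ± 1.26 in Model and 40.3% ± 7.53 in Control libraries (SD, n = 3 each). Injured and Control libraries did not overlap in either share. The effectors together held 53.4% in QYD, 52.7% in Model and 27.7% in Control libraries, and the guardians 35.2% in QYD, 37.4% in Model and 57.9% in Control libraries. The BH3-only genes held 11.4% in QYD, 9.87% in Model and 14.4% in Control libraries. In FPKM the QYD libraries (10.7% to 11.9%) lay above the Model libraries (9.29% to 10.5%), while Controls ran from 10.5% to 20.3%. As shares of counts not divided by length, the BH3-only genes of QYD and Model libraries overlapped. These are descriptions with no test.

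**Figure D4:**
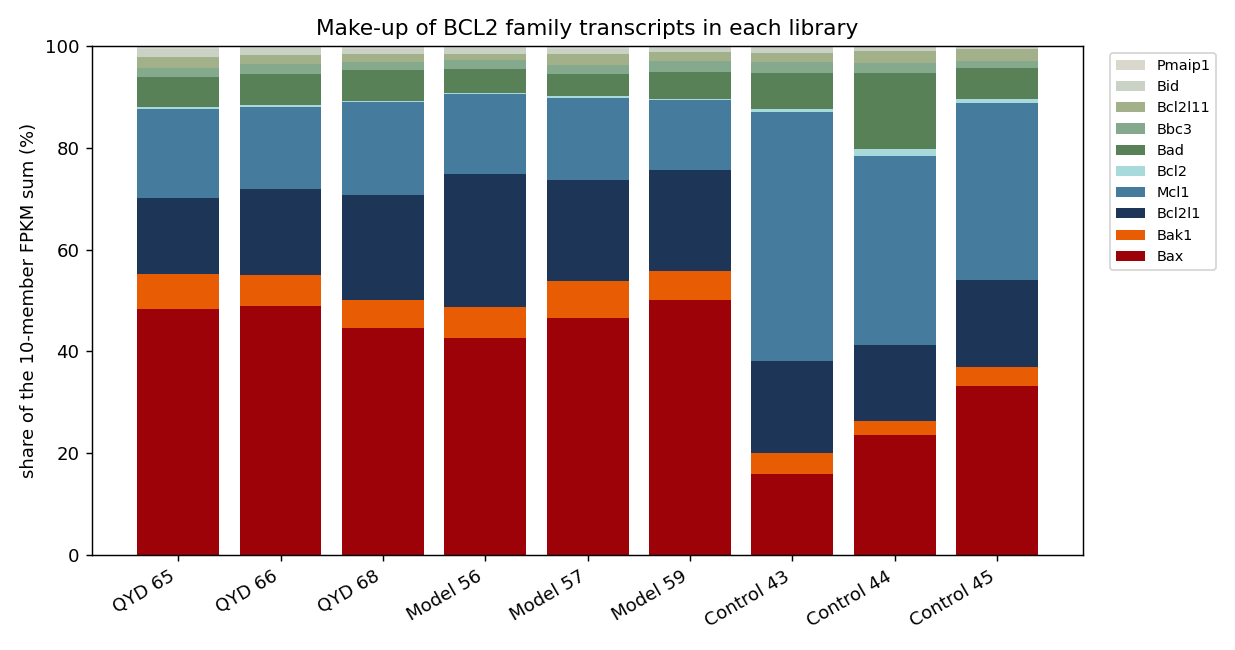
Make-up of the summed FPKM of the 10 members in each library, in percent (vertical axis), with 1 bar per library and 1 colour per gene. Bax fills 44.5% or more of the sum in every QYD library and 42.6% or more in every Model library, against at most 33.1% in Controls, while Mcl1 fills 34.8% or more in every Control.

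Ratios of an effector to a guardian within a library are likewise free of scaling. Bax to Bcl2 averaged 165 ± 36.6 in QYD, 232 ± 91.9 in Model and 29.5 ± 13.2 in Control libraries. Its denominator was low, at 0.11, 0.26 and 0.18 FPKM in Control 43, 44 and 45, from 16, 32 and 25 counts. The effective length of Bcl2 implied by counts and FPKM ran from 6089 to 7297 bases in Controls, so this ratio is imprecise. Bax to Mcl1 averaged 2.74 ± 0.30 in QYD, 3.08 ± 0.50 in Model and 0.64 ± 0.31 in Controls (SD, n = 3 each). The injured groups lay above Controls without overlap in both ratios and overlapped each other. Bax to Bcl2l1, in which effector and guardian both rose, averaged 2.76 ± 0.55 in QYD, 2.16 ± 0.46 in Model and 1.47 ± 0.54 in Controls, with overlap between Model and Control libraries but not between QYD and Control libraries. Bcl2l1 to Mcl1 averaged 1.013 ± 0.14 in QYD, 1.45 ± 0.21 in Model and 0.42 ± 0.06 in Controls. In this ratio the QYD libraries, from 0.857 to 1.14, all lay below the Model libraries, from 1.24 to 1.65. With 3 libraries against 3 this separation has no test here. In the other ratios computed QYD and Model libraries overlapped, among them Bbc3 to Mcl1 (0.08143 to 0.1131 in QYD, 0.1106 to 0.1515 in Model). Of single tested genes on the TMM scale, 8.18% lay lower and 8.56% higher in QYD than in Model without overlap.

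**Figure D5:**
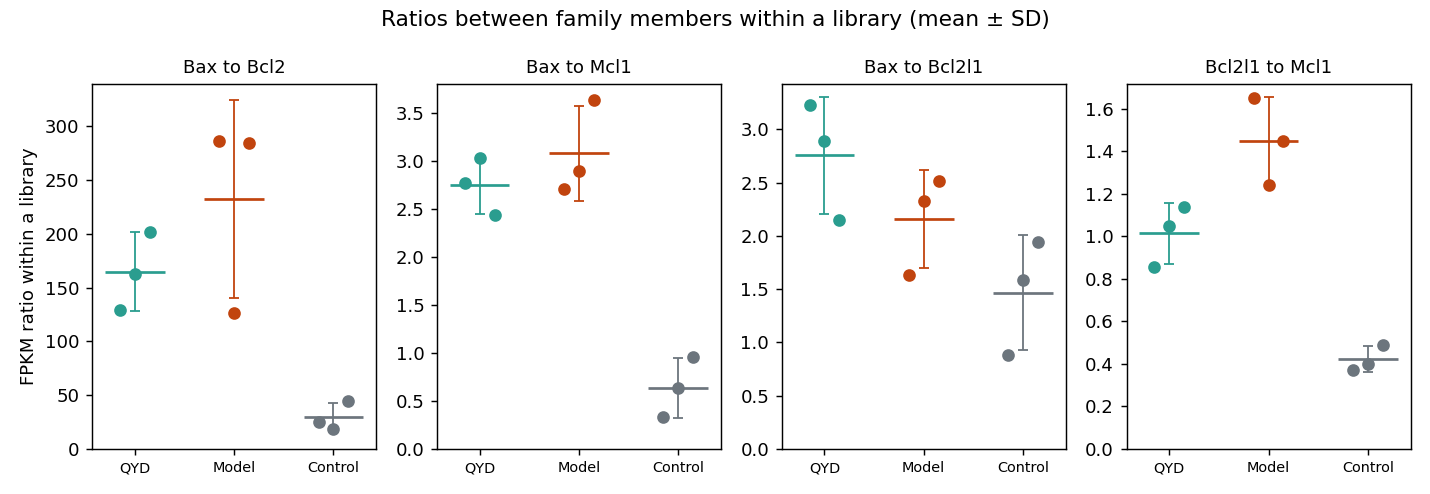
FPKM ratios between family members within a library (vertical axes, linear, from 0), with 1 point per library, a line at the group mean and bars of 1 SD (n = 3). Bax to Bcl2 and Bax to Mcl1 are higher in all QYD and Model libraries than in any Control. Bcl2l1 to Mcl1 is lower in all QYD libraries than in any Model library. QYD and Model libraries overlap in the other ratios shown, and no ratio was tested.

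The genes that act around the family moved in both directions, as did all tested genes. Of 12 tested further family genes, 3 rose and 2 fell in QYD versus Control, and 3 rose and 2 fell in Model versus Control. Without Control 45, 4 rose and 2 fell in each. Of all tested genes, 20.5% rose and 20.3% fell for QYD, and 21.3% rose and 21.3% fell for Model. Bmf, a BH3-only gene, averaged 10.2 CPM in QYD, 10.9 CPM in Model and 3.85 CPM in Control libraries, with a log2 fold change of 1.49 ± 0.19 in Model versus Control. Bcl2l2, the guardian BCL-W, fell by 1.39 on the log2 scale in Model versus Control, and Bnip3, a mitochondrial protein of mitophagy, fell by 1.39 too, although on library totals both had positive values (0.76 and 0.78). Bcl2a1b rose by 1.99, but of its sequence windows of 50 bases no more than 20.8% occur in no other gene's transcripts, so its counts are uncertain.

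Of 16 genes of the apoptosome, caspases and their inhibitors, 10 rose and 3 fell in QYD versus Control, and 8 rose and 3 fell in Model versus Control. The shares of all tested genes were 20.5% and 20.3% for QYD, and 21.3% and 21.3% for Model. Without Control 45, 7 of these genes rose and 3 fell in each comparison. Of all tested genes, 2422 then rose for QYD (2624 with it) and 2540 for Model (2736 with it). Apaf1, the scaffold that cytochrome c activates, averaged 9.29 CPM in QYD, 9.99 CPM in Model and 2.12 CPM in Control libraries, a log2 fold change of 2.22 ± 0.29 in Model versus Control. Casp9, the caspase that the scaffold recruits, averaged 13.8 CPM in QYD, 9.89 CPM in Model and 57.5 CPM in Control libraries, and on library totals its Model versus Control value kept its sign at -0.42 but did not pass. Htra2, a protease released from mitochondria, fell by 1.56, with 0.59 on library totals.

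Of 12 mitochondrial partners of the family, 3 rose and 2 fell in QYD versus Control, and 2 rose and 2 fell in Model versus Control. These counts are near the shares of all tested genes, 20.5% higher and 20.3% lower for QYD, and 21.3% each for Model. Without Control 45, 1 partner rose and 2 fell in each. Vdac2, an outer membrane channel that binds BAK, fell by 0.55, and the adenine nucleotide carrier Slc25a5 fell by 1.04, while Slc25a4 rose by 0.59 and Mfn2, a fusion protein, by 0.43. Both falls turned to 1.60 and 1.11 on library totals. Of 19 tested regulators, 7 rose and 6 fell in QYD versus Control, and 8 rose and 4 fell in Model versus Control. Without Control 45, 7 regulators rose and 7 fell for QYD, and 8 rose and 4 fell for Model. Among them Stat3 rose by 1.08, Rps6ka1, a kinase that phosphorylates BAD, by 1.199, and Mdm2, a p53 target and the brake on p53, by 1.08, while Atf4 fell by 1.012 on the TMM scale and had 1.15 on library totals. In QYD versus Model none of the tested genes of these 4 lists passed.

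The cell types held by the tissue moved with the same groups. On the TMM scale 10 of 10 acinar markers were lower in both injured groups than in Controls, and 9 of 10 neutrophil markers were higher. Of all tested genes, 20.5% were higher and 20.3% lower for QYD, and 21.3% each for Model. The neutrophil sum ran from 159 to 293 CPM in QYD, 124 to 198 CPM in Model and 9.8 to 42.1 CPM in Control libraries, and the duct sum from 716 to 1270 CPM in QYD, 872 to 1270 CPM in Model and 356 to 444 CPM in Controls, with 3 of 7 duct markers higher and 2 lower in QYD, and 4 higher and 1 lower in Model. Macrophage markers summed to 220 to 245 CPM in QYD, 181 to 280 CPM in Model and 110 to 191 CPM in Control libraries, with 4 of 9 markers higher in each and 1 lower in Model. Of the islet markers, 6 of 7 were lower in each injured group on the TMM scale, with a median log2 fold change of -2.31 for QYD and -1.68 for Model, against -0.33 and 0.50 on library totals. No B cell marker of 5 and neither of the 2 tested T cell markers passed, and of the endothelial markers 1 of 5 was higher in QYD and 2 of 5 in Model, with 2 of 6 fibroblast markers higher in each and 1 lower in Model. Without Control 45, 0 endothelial markers were higher in QYD and 1 in Model. Of the duct markers, 3 were then higher and 1 lower in each injured group, and 6 islet markers were lower in QYD and 5 in Model. No marker was at 0 in all libraries of a group. The part of these cell types in the rises of the 7 members was not tested.

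For each member, the tested gene with the most similar profile over the 9 libraries was sought, with the root mean square difference of centred log2 levels as the measure (about log2 units, 7327 candidates or 1 more). Mcl1 was nearest to Ube2d3 (0.072), Bcl2l11 to Atf7ip (0.0646), Bad to Acot2 (0.102) and Bbc3 to Tacc2 (0.107). Bax was nearest to Abcc3 (0.127), Bak1 to Pdpn (0.149), Bcl2l1 to F11r (0.149) and Pmaip1 to Selplg (0.151). The pseudocount of 0.5 added before taking logs is above the mean Pmaip1 level in Controls (0.178 CPM). It narrows the group differences of Pmaip1, so its match to Selplg does not show that these genes change by the same amount. Bcl2 (Tshz2, 0.156) and Bid (Entpd5, 0.223) had the most distant neighbours of the 10.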

How the data were processed

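Pancreas of 9 mice was sequenced as polyadenylated RNA. Per the file headers, the authors deposited read counts per gene and library, here treated as estimated counts, of which 93.5% were whole numbers, as well as FPKM. TPM values in the deposited table were not used, nor were 18 averaged columns of the authors. Tools listed, without roles, in the submitters' processing notes are RSEM 1.2.12, HISAT2 2.0.4 and Bowtie2 2.2.5, with build GRCm38.p6. The sources do not state strandedness.

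Estimated counts were rounded and fitted with edgeR 4.0.16 in R 4.3.3: TMM scaling, the default filter (12828 of 17132 genes kept), 1 quasi-likelihood model over 9 libraries with group as its sole term (residual df 6). Benjamini-Hochberg adjustment ran over all tested genes, with a threshold of 0.05. The common biological coefficient of variation was 0.175. Alternatives were library totals, RLE scaling, TMM computed after dropping the 50 top genes, no filter, a filter of 5 CPM in 3 libraries, DESeq2 1.42.0, a threshold of 0.1, only the compared groups, and leaving out each library. The test was run on simulated counts first. No replicate libraries agreed within sampling noise. The labels do not describe how mice were handled beyond treatment, so p-values measure the spread between these samples.

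The members, the 4 pathway lists and the 9 cell type lists (acinar, duct, islet, neutrophil, macrophage, B cell, T cell, endothelial and fibroblast) were chosen with earlier results of these data known. Named genes were the members, up to 4 genes of each pathway list with the smallest p in Model versus Control and a mean of at least 1 CPM, and for each member its nearest gene with a mean of at least 5 CPM (pseudocount 0.5). A gene that this rule selects is not reported here. Trp53 was named outside this rule, after its values were seen. Gene coordinates came from GENCODE, promoter windows from RefSeq, with 9 of 10 members matched. Intervals are 95%.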

Additional observations from a re-analysis of the deposited data

How the results depend on the processing

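The 7 members that rose in both comparisons with Control kept their direction and passed under every alternative in which they were tested. Each of the 9 single-library omissions is included. Under the default filter Bid and Pmaip1 entered only through the injured groups and had to differ, so their passing there is no separate support. With a filter of 5 CPM, Bcl2, Bid and Pmaip1 were not tested. On library totals, 12185 genes passed in Model versus Control and 12155 in QYD versus Control, and the members turned to 1.41 (Bcl2), 1.95 (Mcl1) and 2.10 (Bad) in Model versus Control, 1.496 (Bcl2) and 1.81 (Mcl1) in QYD versus Control, and -0.15 (Mcl1), -0.077 (Bid) and -0.010 (Bad) in QYD versus Model. The members lower in Model versus Control numbered 1 (Bcl2) at an adjusted p of 0.1, and 0 to 1 when single libraries were left out. Bad was 0.018 in Model versus Control with no filter. Mcl1 in QYD versus Model was -0.0011 with no filter, -0.011 with RLE scaling, -0.011 with DESeq2 and -0.0091 with only the compared groups. Leaving out single libraries, Bad ranged from -0.27 to 0.42 in Model versus Control and from -0.15 to 0.53 in QYD versus Control. In QYD versus Model, Mcl1 ranged from -0.13 to 0.14, Bid from -0.073 to 0.28, Bad from -0.0073 to 0.21 and Pmaip1 from -0.095 to 0.54. The causes were not tested. As shares of counts not divided by length, Bax was 21.0% in QYD, 20.7% in Model and 8.13% in Control libraries. No paired analysis was possible because the groups share no replicate numbers. With 3 mice a group, changes of low genes such as Pmaip1, Bid and Bcl2 are the least precisely measured.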
